A study of Mus musculus with 2 samples.

Results

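The imprinted genes of the mouse were examined in DNase-seq data of urinary bladder. The set comprised 37 genes, chosen by symbol from a list of well-known imprinted loci, out of 55413 genes of the GENCODE M21 annotation on mm10. All 37 were found in the annotation, 29 of them protein-coding and 8 non-coding, and they fell into 17 imprinted clusters. The libraries came from bladder tissue of 2 female B6CASTF1/J mice aged 36 days, hybrids of the laboratory strain C57BL/6J and the wild-derived strain CAST/EiJ, with 1 library per animal. The animals, numbered 5 and 6 in the labels, are called replicate 1 and replicate 2. They formed 1 group with no treatment and no control, and both libraries carry the same strain-level donor record. With 1 group of 2 animals no test was possible, and the difference between the animals is the only measure of error.

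Imprinted genes are expressed from only the maternal or only the paternal copy. Their clusters are governed by control regions that acquire DNA methylation in one germline and keep it on that parental copy in the tissues of the offspring. At some regions the unmethylated copy binds CTCF, a zinc finger protein that blocks contacts between enhancers and promoters. At others it carries the promoter of a long non-coding RNA, such as Kcnq1ot1 or Airn, that silences neighbouring genes in cis. ZFP57, a zinc finger protein, holds the methylated copy in its state. DNase-seq marks DNA that is open to cutting by deoxyribonuclease I, so that open regulatory sites appear as peaks and short stretches shielded by bound proteins as footprints inside them. The deposited files carry no allele information, so a region open on 1 parental copy and a region open on both but less often cannot be told apart here. Likewise, in bulk tissue, fewer cells with an open site and less opening per cell cannot be told apart.

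Most imprinted genes were open at a promoter in the bladder, yet their promoter peaks were low. A promoter was called open when a peak lay within 1 kb of any annotated transcript start, and its height is the authors' signal of the highest such peak. Of the 37 imprinted genes, 31 (83.8%) were open in both animals, against 35.4% of all genes, 66.8% of protein-coding genes and 31.1% of long non-coding genes. Among the protein-coding imprinted genes 25 of 29 were open, and among the non-coding ones 6 of 8. Genes known for maternal expression were open in 9 of 11 cases, those known for paternal expression in 19 of 23, and all 3 whose expressed copy depends on the tissue, Ube3a, Grb10 and Gnas, were open. H19, Ndn and Magel2 had a promoter peak in replicate 1 only. Rtl1, Rian and Zdbf2 had none, and at their starts neither animal had a base in the authors' cut rate lists, which run to a false discovery rate of 0.05.

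The median promoter height of the open imprinted genes was 1.86 in replicate 1 and 1.61 in replicate 2, against 4.84 and 3.53 for open protein-coding genes. With closed promoters counted as 0, the medians were 1.73 and 1.48 for imprinted genes and 2.24 and 1.72 for protein-coding genes. In both animals 24 imprinted genes lay below the median of open protein-coding promoters, and 4 lay above it, namely Ube3a, Copg2 and the pair Peg3 and Usp29, which share a peak. Promoter height was higher in replicate 1 for 29 of the 31 genes (93.5%), against 90.9% of open protein-coding genes. The exceptions were Mirg and Ascl2, and at Ascl2 the order depended on the window.

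**Figure D1:**
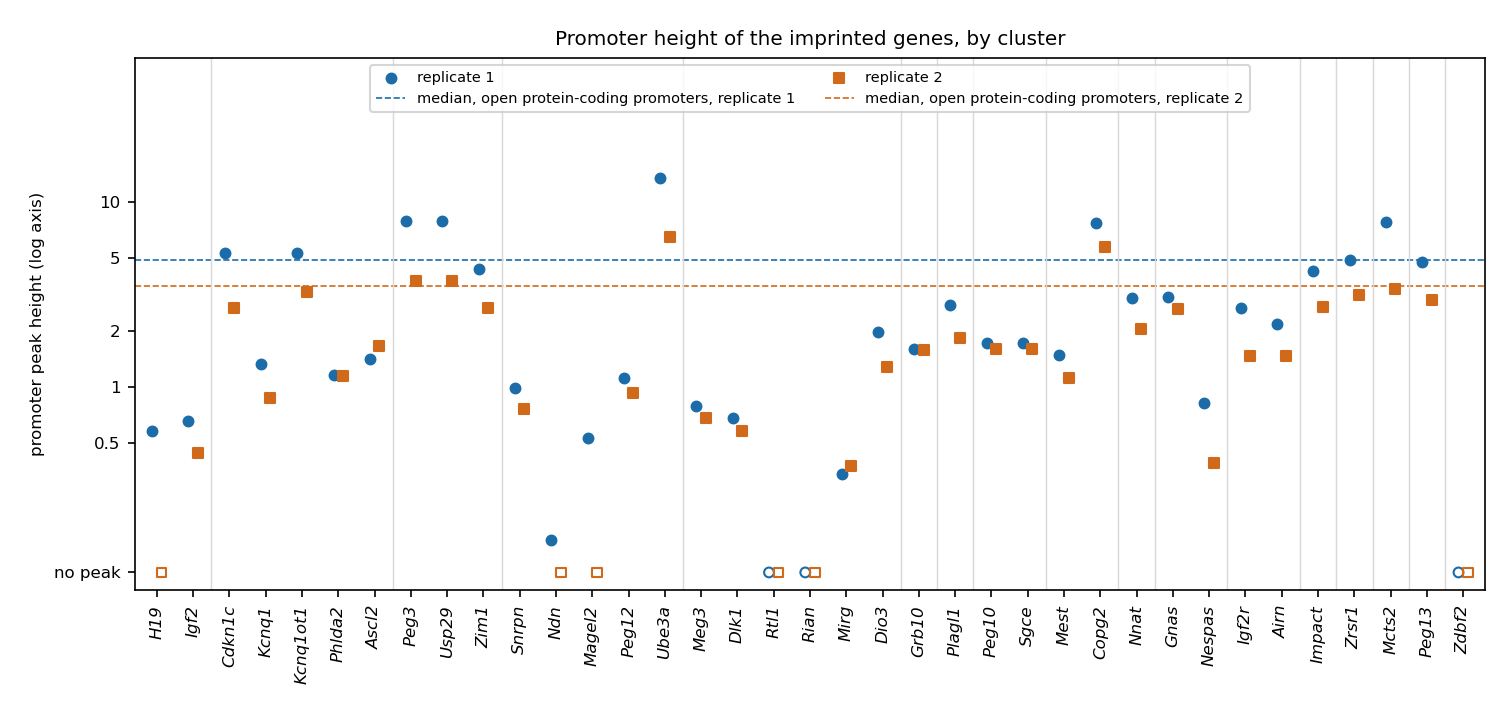
Height of the highest promoter peak of each imprinted gene (y axis, the authors' signal, log axis) in replicate 1 (circles) and replicate 2 (squares), with genes ordered by cluster and clusters parted by grey lines. Open symbols at the foot mark genes without a promoter peak and dashed lines the median of open protein-coding promoters in each animal (4.84 and 3.53). Ube3a stands highest in both animals, and most points lie below the dashed lines.

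Inner starts added to the open share. Counting only the most upstream annotated start of each gene, 23 of 37 imprinted genes (62.2%) were open in both animals, against 62.1% of protein-coding genes. Of the imprinted genes open by any start, 8 (25.8%) were not open in both animals at the most upstream one, against 7.11% of open protein-coding genes. These were Grb10, Igf2, Mest, Mirg, Nespas, Nnat, Plagl1 and Snrpn. Of them, Nespas had a peak at that start in replicate 1, of 0.821, and Grb10 in replicate 2, of 0.603. Imprinted genes also have more annotated starts, with a median of 5 per gene against 3 for protein-coding genes, and the part of that number in the difference was not tested.

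The tissue matched its label in a check of marker promoters. Promoters were open in both animals for 8 of 8 urothelial, 5 of 5 smooth muscle, 5 of 5 fibroblast and 2 of 3 endothelial genes. They were open for 0 of 3 leukocyte, 0 of 2 liver and 0 of 2 pancreas genes. The main peak lists held 117773 and 102671 peaks and the footprint lists 280105 and 247833 footprints. The files give no read counts, so the depth behind a height is unknown and no counting interval is given.

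The H19 and Igf2 locus on chromosome 7 is the classic insulator locus. H19 (ENSMUSG00000000031.16, chr7:142575529-142578143, mm10, minus strand) makes a maternally expressed long non-coding RNA, and Igf2 (ENSMUSG00000048583.16, chr7:142650766-142666816, minus strand) encodes a paternally expressed fetal growth factor. Between them, upstream of H19, lies the control region, whose CTCF sites are known to be bound on the maternal copy. A search of both strands for the CTCF core CCNNNNGGNGGC, where N is any base, found 4 sites in the window of 3501 bases upstream of H19. Of windows of that length centred on the most upstream start of protein-coding genes, 3.84% hold as many. The H19 window lies wholly upstream of its start, so the placement differs. The 4 sites are shown because they carry the insulator, in the C57BL/6J reference of GRCm38 (mm10), minus strand, 5′ to 3′, with the core in capitals.
H19 site at -2174, chr7:142580297-142580336: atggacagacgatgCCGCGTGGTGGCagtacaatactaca
H19 site at -2629, chr7:142580752-142580791: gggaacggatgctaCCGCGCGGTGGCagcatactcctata
H19 site at -3655, chr7:142581778-142581817: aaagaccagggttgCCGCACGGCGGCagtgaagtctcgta
H19 site at -3899, chr7:142582022-142582061: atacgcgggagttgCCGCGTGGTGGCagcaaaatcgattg

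The H19 control region was open in both animals and protected at 3 of its 4 CTCF cores. None of the 4 matches the stricter consensus tried as an alternative, which finds 0 sites in this window. Positions count bases from the H19 start, with minus for upstream. The cores at -2174, -2629 and -3655 each lay inside a footprint, extended by 5 bp on either side, in replicate 1 and in replicate 2. The core at -3899 lay in no footprint of either animal, and it was inside a peak of replicate 2 only. Peaks over the region had heights of 0.845, 1.04 and 1.06 in replicate 1 and 0.892, 0.900 and 0.892 in replicate 2, against a median over all peaks of 0.845 and 0.739. In replicate 2 the first 2 of these peaks overlap each other, and that of 0.900 covers the cores at -2174 and -2629. Among all CTCF cores of the genome inside peaks of both animals, 50.9% were protected in both, and 3 of the 3 such cores of this region were. All 4 cores point the same way, on the minus strand.

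Both genes of the locus were weakly open at their starts. At the H19 start replicate 1 had a peak of 0.576 while replicate 2 had no peak. The cut rate lists held 214 bases at its starts in replicate 1 and 33 in replicate 2. Igf2, with 9 annotated starts, was closed at the most upstream one and open at 2 of 7 groups of starts. At the group 5.51 kb downstream of the first start it had heights of 0.529 and 0.442, from peaks that do not overlap, and at the group 7.33 kb downstream 0.655 and 0.442, from a common peak. Higher peaks lay upstream of Igf2, of 0.868 and 1.09 at position -5516 and of 1.14 and 0.960 at position -9054 from the nearest start, by the middle of the peak in replicate 1. Both lie in intergenic DNA. None of the 14 CTCF cores within 20 kb of Igf2 was protected in both animals.

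**Figure D2:**
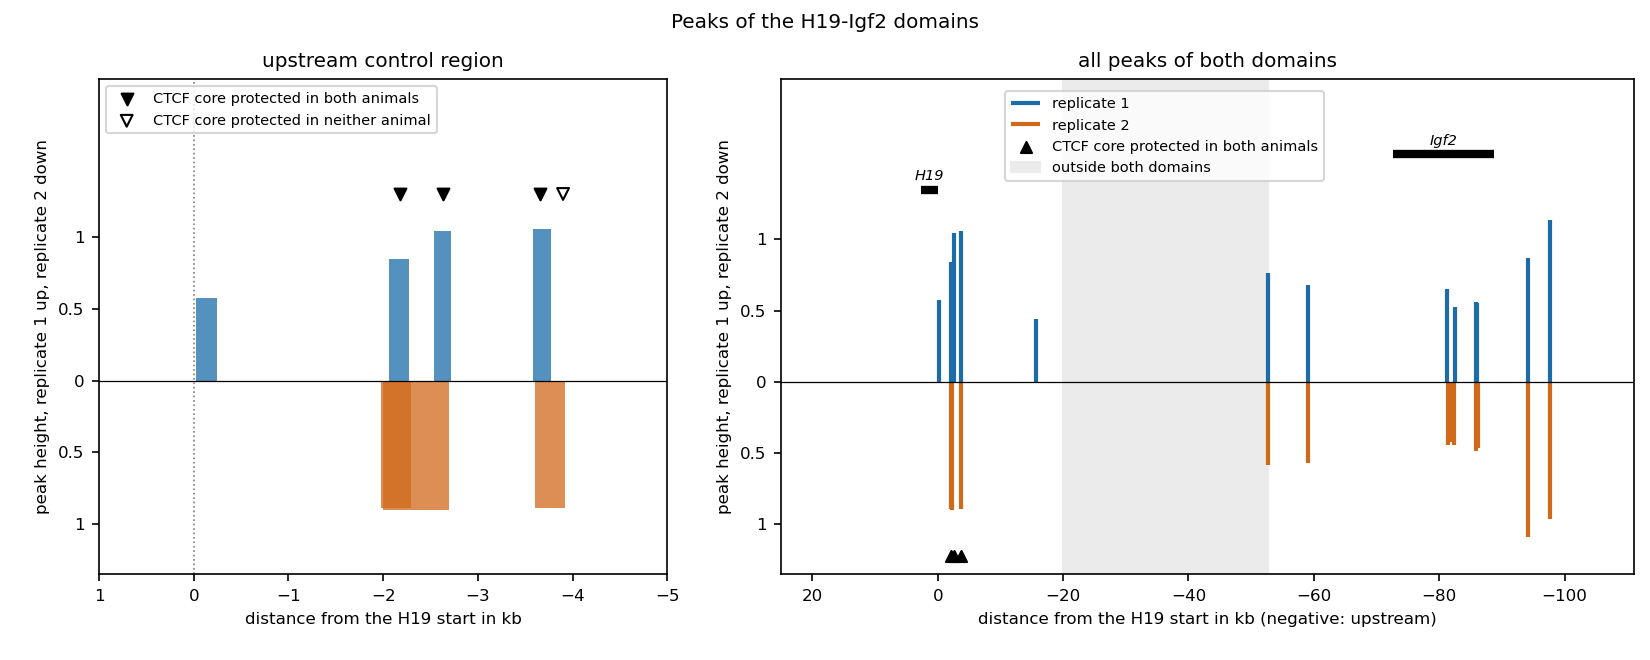
Left, peaks of the H19 upstream region as bars of their true width with height upward for replicate 1 and downward for replicate 2, against distance from the H19 start in kb; filled triangles mark CTCF cores protected in both animals and the open triangle the core protected in neither. Right, all peaks within 20 kb of H19 and Igf2 on the same height scale, with genes as black bars; the 3 filled triangles sit at the peaks upstream of H19, of 0.845 to 1.06 in replicate 1.

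The Kcnq1 cluster lies next to it on chromosome 7 and is known for silencing by a non-coding RNA. Kcnq1ot1 (ENSMUSG00000101609.2, chr7:143203458-143296549, minus strand) starts inside an intron of Kcnq1 at the control region, and its paternal transcript represses Cdkn1c, Phlda2 and Ascl2. Its promoter was among the higher ones, with heights of 5.29 in replicate 1 and 3.24 in replicate 2. The stretch of the peak common to both animals is printed on the plus strand of GRCm38, with the bases under a footprint of both animals in capitals, because it holds the promoter of the silencing RNA.
Kcnq1ot1 promoter peak, chr7:143296541-143296780: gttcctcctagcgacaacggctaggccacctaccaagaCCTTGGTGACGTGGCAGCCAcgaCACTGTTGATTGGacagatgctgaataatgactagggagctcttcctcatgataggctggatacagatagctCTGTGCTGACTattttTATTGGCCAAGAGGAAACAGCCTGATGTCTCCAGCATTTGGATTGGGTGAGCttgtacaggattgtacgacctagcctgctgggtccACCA

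Of these 240 bases, 100 lay under a footprint of both animals. They included all 3 CCAAT boxes of the peak (CCAAT on one strand, ATTGG on the other), a motif known to bind the factor NF-Y, searched for after the sequence had been seen. Of windows of the same length and place at protein-coding starts, 35.1% hold at least 1 CCAAT box and 3.03% hold 3 or more. These shares concern presence of the box only. How often CCAAT boxes of other peaks lie under shared footprints was not computed, so the protection of all 3 has no background. No match to the CTCF core lay in the control window of 3001 bases around the Kcnq1ot1 start. CTCF sites that depart from this core were not searched for.

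The genes under the control of Kcnq1ot1 differed in promoter height. Cdkn1c, an inhibitor of the cell cycle, had heights of 5.31 and 2.68. Kcnq1, a potassium channel gene, had 1.33 and 0.875, and Phlda2, a growth restrainer of the placenta, had 1.16 and 1.15. Ascl2, a transcription factor needed for the placenta, had 1.42 and 1.66. The Ascl2 peak of replicate 2 overlapped a peak of 3.54 in replicate 1 that lay 1147 bp from the start and so outside the promoter window, so the pair is not like for like. Cdkn1c and Kcnq1ot1 thus stood at percentiles 53.5 and 53.3 of open protein-coding promoters in replicate 1 and 38.9 and 46.5 in replicate 2, and the other 3 genes lay between 15.7 and 18.9 in replicate 1 and between 13.3 and 25.9 in replicate 2.

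Distal sites of the cluster were as high as its promoters. The highest peak of replicate 1, of 6.18 there and 3.39 in replicate 2, lay in an intron of Kcnq1 at -17571 bp from the Kcnq1ot1 start, and another, of 3.96 and 4.02, lay 44836 bp downstream of the nearest, inner Kcnq1 start and was the highest of the cluster in replicate 2. Together the domains of the 5 genes, each with 20 kb on either side, held 53 peaks in replicate 1 and 46 in replicate 2 over 478.7 kb. Of these, 40 and 41 were found in the other animal.

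Upstream of Cdkn1c stood a row of protected CTCF cores. They are printed on the strand of the core with the core in capitals, since they make up most of the protected cores of the cluster. Positions count from the nearest annotated Cdkn1c start.
Cdkn1c site at -3037, chr7:143464067-143464106, plus strand: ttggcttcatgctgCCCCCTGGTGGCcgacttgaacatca
Cdkn1c site at -5454, chr7:143466484-143466523, minus strand: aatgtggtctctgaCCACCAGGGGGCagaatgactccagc
Cdkn1c site at -9116, chr7:143470146-143470185, minus strand: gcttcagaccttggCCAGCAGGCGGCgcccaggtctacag
Cdkn1c site at -19656, chr7:143480686-143480725, plus strand: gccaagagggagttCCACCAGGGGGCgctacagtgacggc

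Each of these 4 places was protected in both animals. The place at -3037 matched the core on both strands, 1 base apart, and counts as 2 of the 7 cores of the cluster that were protected in both. Peak heights there were 3.17 and 2.27 at -3037, 2.60 and 2.46 at -5454, 2.59 and 2.23 at -9116 and 1.63 and 1.17 at -19656. All of them exceeded the H19 control region in both animals. The other 2 protected cores lay at -11448 from the nearest Kcnq1 start and at -21 from another.

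**Figure D3:**
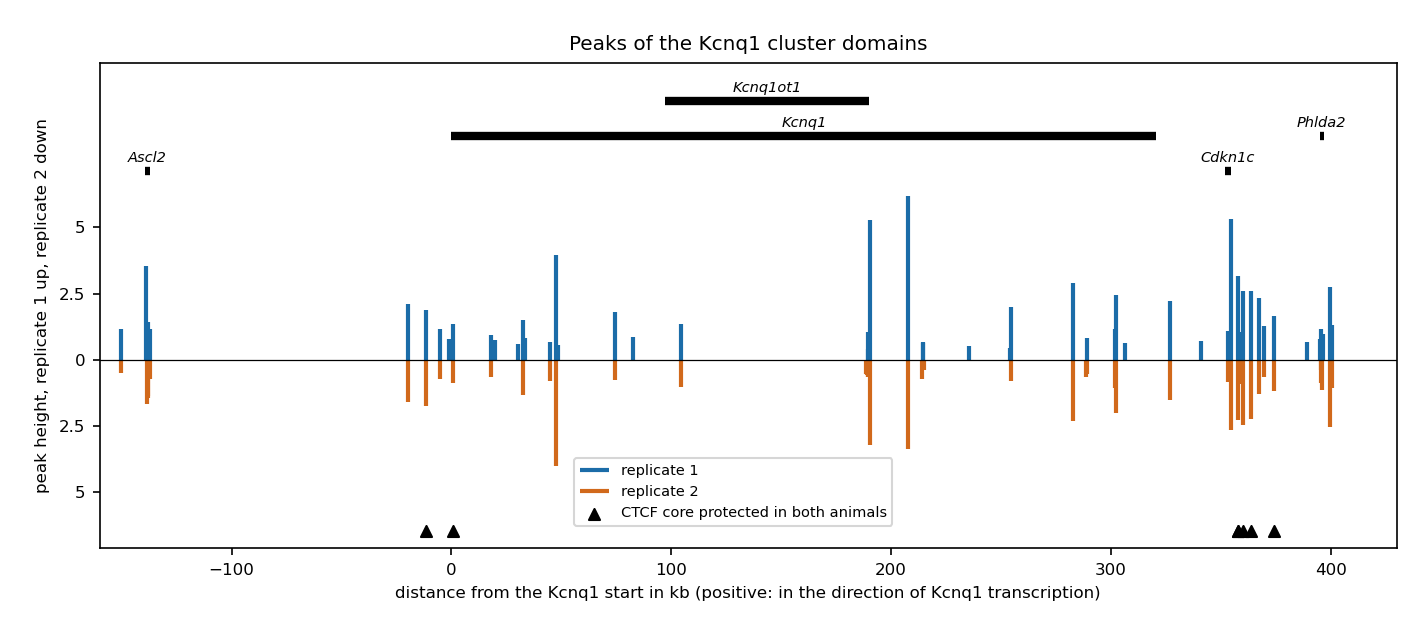
Peaks in the domains of the Kcnq1 cluster, with height upward for replicate 1 and downward for replicate 2 (y axis, the authors' signal) against distance from the Kcnq1 start in kb. Black bars are genes and triangles are CTCF cores protected in both animals; 4 of the 6 triangle positions lie upstream of Cdkn1c, at the right.

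The Peg3 cluster on chromosome 7 is controlled from the shared start region of Peg3 and Usp29. Peg3 (ENSMUSG00000002265.16, chr7:6703892-6730431, minus strand) encodes a zinc finger protein and Usp29 (ENSMUSG00000051527.11, chr7:6730578-6967219, plus strand) a ubiquitin peptidase, and they run in opposite directions. The first intron of Peg3 is known for a tandem array of sites for the factor YY1. A search of both strands for the YY1 core GCCATNTT found 12 sites from 1 kb upstream to 4 kb downstream of the Peg3 start, all on the minus strand, which is the strand of Peg3. Windows of the same length centred on the most upstream start of protein-coding genes hold a median of 1, and 0.0456% hold as many. Their placement differs from that of the Peg3 window. The 6 cores protected in at least 1 animal are printed 5′ to 3′ on the minus strand of GRCm38, with the core in capitals and positions counted from the most upstream Peg3 start.
Peg3 site at 838, chr7:6729578-6729607: acccagttggcGCCATCTTggagggtggag
Peg3 site at 944, chr7:6729472-6729501: gcccgcttggcGCCATCTTgaaatgaccgc
Peg3 site at 1547, chr7:6728869-6728898: cccatcctggcGCCATCTTtcctggccaag
Peg3 site at 1976, chr7:6728440-6728469: cccaatttggcGCCATCTTtgccagcaata
Peg3 site at 2025, chr7:6728391-6728420: atggtgcagacGCCATCTTgaatgacaggc
Peg3 site at 2582, chr7:6727834-6727863: cccacctgggcGCCATCTTtacttgtcatg

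Of the 12 cores, 4 were protected in both animals, those at 838, 944, 1547 and 1976. Those at 2025 and 2582 were protected in replicate 2 only, and the remaining 6 in neither animal. A second background took windows from 1 kb upstream to 4 kb downstream of protein-coding starts, with a peak in both animals. Among all YY1 cores in them, 3.34% were protected in both. That share includes cores outside the peaks, and a share for cores inside peaks was not computed. The comparison therefore does not separate an open window from protection of the YY1 core. The peaks were narrow and did not always cover the footprints: in both animals 5 of the 12 cores lay inside a peak, 1 of which was protected in both.

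The Peg3 start region held the most footprints of the 19 control regions examined. Its window of 5001 bases held 34 footprints in replicate 1 and 34 in replicate 2, of which 20 of replicate 1 overlapped one of replicate 2. Its peaks reached 7.93 and 3.75 over the core at 838, and this peak lies within 1 kb of the starts of both genes, so that Peg3 and Usp29 share the value. A further peak inside the array had 5.65 and 3.19. Zim1, a maternally expressed zinc finger gene of the cluster, had a promoter height of 4.33 and 2.67. Inside Usp29, distal peaks of 4.29 and 2.73 and of 2.91 and 1.90 were found in both animals, the second with a protected CTCF core.

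**Figure D4:**
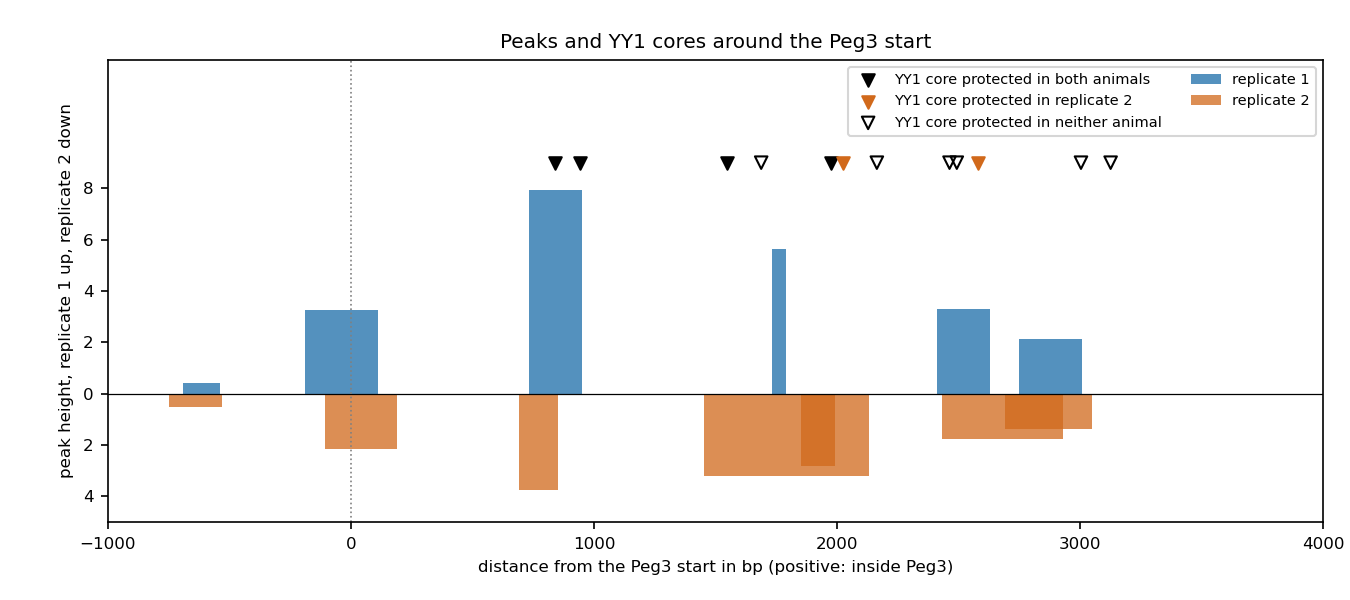
Peaks from 1 kb upstream to 4 kb downstream of the Peg3 start as bars of their true width, with height upward for replicate 1 and downward for replicate 2 (y axis, the authors' signal) against distance in bp; darker orange marks peaks of replicate 2 that overlap each other. Triangles mark the 12 YY1 cores: black, protected in both animals (4), orange, in replicate 2 only (2), open, in neither (6).

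The Snrpn and Ube3a cluster, which corresponds to the human region of the Prader-Willi and Angelman syndromes, held the widest range of promoter heights. Ube3a (ENSMUSG00000025326.12, chr7:59228750-59311536), a ubiquitin ligase expressed from the maternal copy in neurons and from both copies in most other tissues, had 13.5 and 6.45, the highest of the 37 genes in both animals. It stood at percentiles 93.0 and 84.2 of open protein-coding promoters. Snrpn, a splicing protein gene whose start is the control region, was closed at its most upstream start and had 0.987 and 0.764 at the start 135.11 kb downstream of it. Peg12, an intronless gene, had 1.12 and 0.926.

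Necdin (Ndn) and its neighbour were nearly closed at the single start annotated for each. Ndn had only a peak of 0.150 at -933 from its start, in replicate 1. In both animals, however, a peak of 2.25 and 1.61 lay in its single exon, 1711 bp downstream of the start and thus outside the promoter window. Whether this peak marks a start that is not annotated was not tested, so Ndn may not be closed at its promoter. Magel2, a partner of ubiquitin ligases, had a peak of 0.529 at its start in replicate 1 and was closed there in replicate 2. At 5599 and 23368 bp downstream of that start, peaks of 0.671 and 0.662 and of 0.600 and 0.637 each held a CTCF core protected in both animals. The cluster had few open sites for its size, with 15 peaks in replicate 1 and 10 in replicate 2 over 438.2 kb.

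On chromosome 12, the open promoters of the Dlk1 and Meg3 cluster lay at or below percentile 25.1 of open protein-coding promoters in replicate 1 and 20.3 in replicate 2. Dlk1 (ENSMUSG00000040856.17, chr12:109452823-109463336), a paternally expressed inhibitor of differentiation related to Notch ligands, had 0.679 and 0.578. Meg3 (ENSMUSG00000021268.17, chr12:109541001-109571726), a maternally expressed long non-coding RNA, had 0.789 and 0.679, from a different peak in each animal. Mirg, a host of microRNAs, had 0.339 and 0.374 at an inner start 18.14 kb downstream of its first. Dio3, an enzyme that inactivates thyroid hormone, was the highest of the cluster at 1.98 and 1.29. Rtl1, a gene derived from a retrotransposon, and Rian, a host of small RNAs, had no promoter peak. The window of the IG-DMR, the control region between Dlk1 and Meg3, had a single peak, of 0.418 in replicate 1. It held no footprint in either animal. Between that window, placed by distance, and the Meg3 start lay a peak of 0.663 and 0.994, with 3 footprints in each animal. Its middle was at -9201 from the nearest Meg3 start in replicate 1, so the result depends on where the window ends.

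The highest peak of the Dlk1 and Meg3 cluster was distal. It lay at -14903 from the nearest Dlk1 start, with heights of 3.06 and 2.64, and held a CTCF core protected in both animals. That core and the peak common to both animals at the Meg3 start are printed on the plus strand of GRCm38, since the second is the methylation-regulated promoter of the cluster. Capitals mark the core in the first and bases under a footprint of both animals in the second.
Dlk1 upstream site, chr12:109437893-109437932: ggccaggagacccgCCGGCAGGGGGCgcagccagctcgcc
Meg3 promoter peak, chr12:109540841-109541080: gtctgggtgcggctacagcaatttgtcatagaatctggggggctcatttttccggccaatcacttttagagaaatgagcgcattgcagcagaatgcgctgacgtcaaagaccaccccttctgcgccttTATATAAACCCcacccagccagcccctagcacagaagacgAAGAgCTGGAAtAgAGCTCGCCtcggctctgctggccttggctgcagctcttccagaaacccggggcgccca

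At this Meg3 peak the heights were 0.742 and 0.679, and 30 of its 240 bases lay under a footprint of both animals. No match to the CTCF core lay in the window of 3001 bases around the Meg3 start. A core 778 bp from another annotated Meg3 start was protected in replicate 1 only.

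Igf2r and Airn on chromosome 17 pair a growth regulator with its silencer. Igf2r (ENSMUSG00000023830.14, chr17:12682406-12769664, minus strand) encodes the receptor that clears IGF2 and is expressed from the maternal copy. Airn (ENSMUSG00000078247.4, chr17:12741311-12860136, plus strand) starts in its second intron and is transcribed from the paternal copy. Igf2r had 2.67 and 1.48 at its start, and Airn had 2.19 and 1.48. The highest peak of the cluster, of 4.34 and 2.66, lay at -23046 from the nearest Igf2r start. The Airn promoter peak is printed on the plus strand of GRCm38, with bases under a footprint of both animals in capitals, as the start of the silencing RNA.
Airn promoter peak, chr17:12741221-12741460: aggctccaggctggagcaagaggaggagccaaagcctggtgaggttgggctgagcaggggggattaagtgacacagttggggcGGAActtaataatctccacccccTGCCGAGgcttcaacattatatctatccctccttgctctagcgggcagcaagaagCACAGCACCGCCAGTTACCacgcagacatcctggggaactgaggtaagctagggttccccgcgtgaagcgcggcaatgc

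The Gnas locus on chromosome 2 showed a separate peak at several of its alternative starts. Gnas (ENSMUSG00000027523.19, chr2:174284320-174346744) encodes the stimulatory G protein subunit and, from upstream starts, other products, with a different expressed copy for each. At the most upstream start, that of Nesp, heights were 1.09 and 0.985, and a CTCF core at -146 was protected in both animals. At 13.54 kb downstream only replicate 1 had a peak, of 0.639. At exon 1A, 43.25 kb downstream, heights were 1.51 and 1.75. At the group of starts 45.69 kb downstream, which begins the G protein transcript, they were 3.07 and 2.64, the highest at the starts of the locus in replicate 1 and in replicate 2. Nespas, the antisense RNA, had 0.821 in replicate 1 and 0.391 in replicate 2, but at starts 10 kb apart, so that it counts as open in both without a common peak.

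Inner starts carried the signal at Grb10, Mest and Plagl1 too. Grb10 (chromosome 11), an adaptor that dampens growth factor signalling, had 1.22 and 1.37 at a start 1.28 kb downstream of its first, and 1.61 and 1.58 at the inner start 11.95 kb downstream, the germline control region. Plagl1 (chromosome 10), a zinc finger transcription factor, was closed at its first start and had 2.77 and 1.85 at the start 30.19 kb downstream. Mest (chromosome 6), an enzyme of the hydrolase fold expressed in mesoderm, was closed at the other 5 of its 6 groups of starts and had 1.49 and 1.12 at the start 14.50 kb downstream. These are the starts at which the control regions of the 3 genes are placed.

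At Mest and at its neighbour Copg2, CTCF cores near the starts were protected in both animals. Copg2, a coat protein gene of vesicle transport, had 7.71 and 5.67 and held 2 protected cores in its promoter peak, at -49 and -119 from the nearest start. At -917 from the inner Mest start, a core in a peak of 1.48 and 0.985 was protected too. The 3 sites are printed on the strand of the core, with the core in capitals, because they are protected cores at starts rather than at distal sites.
Mest site, chr6:30737113-30737152, minus strand: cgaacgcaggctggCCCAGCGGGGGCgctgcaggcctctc
Copg2 site at -49, chr6:30896823-30896862, minus strand: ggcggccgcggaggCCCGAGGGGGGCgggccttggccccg
Copg2 site at -119, chr6:30896893-30896932, plus strand: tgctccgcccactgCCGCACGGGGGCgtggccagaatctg

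Peg10, another gene of retrotransposon origin, and Sgce, a sarcoglycan, share a start region on chromosome 6 and a promoter peak of 1.73 and 1.61. A higher peak, of 7.71 and 4.74, lay in the first intron of Peg10 at 1864 bp from its nearest start. A CTCF core 2057 bp from that start was protected in both animals although no peak covered it.

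Imprinted genes that sit within a larger host gene were compared with the host. Nnat, a small proteolipid gene inside Blcap, had 3.03 and 2.06, and Blcap had 3.63 and 4.22. Mcts2 had 7.82 and 3.40, and its host H13, a signal peptide peptidase, had 4.74 and 4.09. Zrsr1 had 4.82 and 3.16, and its host Commd1 had 9.65 and 7.20. Peg13, a non-coding RNA inside Trappc9, had 4.75 and 2.96, and Trappc9 had 7.78 and 7.30. The host was higher than the inner gene in both animals for Blcap, Commd1 and Trappc9, while for Mcts2 and H13 the order differed between the animals. Mcts2 and Zrsr1 are processed copies of other genes, so peaks over the copied sequence could include reads from the near-identical parent genes. The Zrsr1 peak lies inside the annotated gene. The Mcts2 peak ends at 152687020 in both animals, upstream of the annotated gene, which begins at 152687035. A share of such reads in the heights was not tested.

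Impact, whose product restrains a kinase of the stress response, had 1.73 and 1.65 at its first start on chromosome 18 and 4.23 and 2.72 near its inner starts at the control region. CTCF cores at -13969 and -7490 from its first start were protected in both animals. Zdbf2, a zinc finger gene of chromosome 1 with a role in growth, had no peak and no footprint within 20 kb in either animal. The control window placed upstream of it, chr1:63257265-63265265, lies within those 20 kb and so held no peak either. DNA further upstream was not examined.

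Over all 19 control regions, 16 had a peak in both animals. In a window of the median length around the most upstream start, 63.6% of protein-coding genes had one. Some control windows lie on inner starts, such as those of Plagl1, Mest and Grb10, so the shares are not like for like. The windows were placed by their distance from annotated starts. The IG-DMR and the Nespas start had a peak in replicate 1 only, and the region upstream of Zdbf2 in neither. The highest were the Peg3 start at 7.93 and 3.75, the Mcts2 start at 7.82 and 3.40 and the Kcnq1ot1 start at 5.29 and 3.24. The lowest open ones were the Meg3 start at 0.742 and 0.679 and the Snurf and Snrpn start at 0.987 and 0.764. The windows held 151 footprints in replicate 1 and 125 in replicate 2. Of those of replicate 1, 70 (46.4%) overlapped a footprint of replicate 2, against 44.8% of all footprints of replicate 1.

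**Figure D5:**
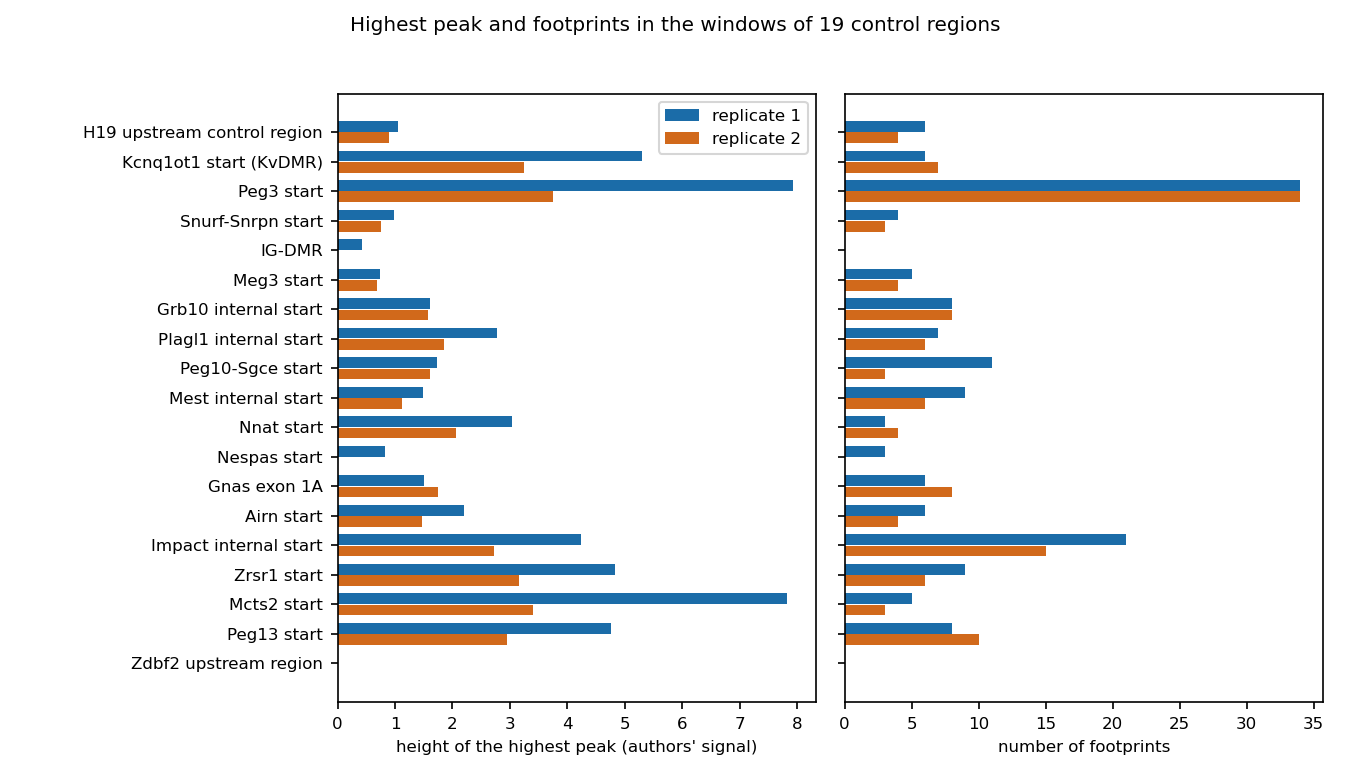
Height of the highest peak (left, the authors' signal, linear axis from 0) and number of footprints (right) in the windows of the 19 control regions, in replicate 1 (blue) and replicate 2 (orange). The Peg3 start has the highest peak in both animals and 34 footprints in each, and the region upstream of Zdbf2 has neither peak nor footprint.

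The hexamer TGCCGC, the known site of ZFP57 when methylated, was frequent in the control regions and was protected at a share near the background. The search of both strands found 107 in the 19 windows. In 13 of the windows there were as many as under 5% of windows of the same length at protein-coding starts hold. Those background windows are centred on the most upstream start, and not all control windows are. Of 25 hexamers inside peaks of both animals, 4 were protected in both, against 18.6% of all hexamers inside peaks of both animals. At the H19 sites at -2174 and -3655 the protected hexamer overlapped the CTCF core, so that the footprint cannot be assigned to either motif.

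Inside open DNA, CTCF cores of the imprinted domains were protected at a share near the background. The domains held 410 cores, of which 24 were protected in both animals (5.85%), against 2.97% of all 254987 cores of the genome. The 24 became 9 with a stricter consensus and 14 with footprints not extended. More of them lay in peaks of both animals, 10.5% against 5.51%. Of the 43 inside peaks of both animals, 23 were protected (53.5%), against the 50.9% given above. The 24 cores mark 22 places, since those at Cdkn1c and at the host of Mcts2 match on both strands. The Kcnq1 cluster held 7, the H19 and Igf2 locus and the Mest and Copg2 locus 3 each, the Snrpn, Impact and Mcts2 clusters 2 each, and the Peg3, Dlk1, Peg10, Gnas and Igf2r clusters 1 each. The other 6 clusters held none. Footprints with a core made up 4.44% and 5.35% of those in the domains, against 3.12% and 3.22% of all footprints.

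Open sites of the imprinted domains recurred between the animals at shares near those of all peaks. The domains held 245 peaks in replicate 1 and 206 in replicate 2 over 2917.5 kb. Of these, 71.8% and 83.5% were found in the other animal, against 71.5% of all peaks of replicate 1 and 80.7% of all peaks of replicate 2. Peak density had medians of 0.859 and 0.704 per 10 kb over the imprinted genes, against 0.768 and 0.672 over protein-coding genes and 0.495 and 0.468 over all genes. In these medians a peak in overlapping domains counts for each of the genes. By place, 112 and 107 of the peaks lay at promoters, 88 and 60 in introns, 31 and 27 between genes and 14 and 12 in exons. Promoter here means within 1 kb of an annotated start of any gene, not only of an imprinted one. The same shares over all peaks were not computed. The Mcts2 domain was the densest, with 2.69 and 3.18 peaks per 10 kb.

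The median difference between the animals was close to that of protein-coding genes. Heights summed over the domain gave a median log2 ratio, replicate 2 over replicate 1 with a pseudocount of 1, of -0.43 over all genes. Relative to it, the 36 imprinted genes with a peak had a median of -0.09, against -0.07 for protein-coding genes, and 22 of them (61.1%) lay below 0, against 59.3% of protein-coding genes. Domains of neighbouring genes overlap, so these values are not independent, and Rtl1 and Rian rest on the same peaks. Ube3a was lowest at -0.64, with sums of 14.6 and 6.45 over 620 and 360 bp of peaks. Igf2r followed at -0.61, with 22.8 and 10.5 over 3718 and 2619 bp, but it had -0.25 with only the peaks found in both animals and -1.02, below Ube3a, with the smaller peak list. Peg12 at 0.41 and Igf2 at 0.37 were the highest, with sums of 1.57 and 1.53 and of 5.75 and 5.46. Their place was not stable, since with only the peaks found in both animals Peg12 had 0.20 and Igf2 0.23, below Meg3 at 0.41 and Magel2 at 0.40. With the smaller list Magel2 had 1.23, and with only 1 kb around starts Ascl2 had 0.66. These are values without a test.

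Genes that regulate imprinting were mostly open. Of 30 such genes, 28 (93.3%) were open in replicate 1 and in replicate 2, against 66.8% of protein-coding genes. With only the most upstream start counted, 21 of the 30 were open in both animals, against 62.1% of protein-coding genes. By any start, the median height of the open regulators was 6.73 and 4.60, against 4.84 and 3.53 for open protein-coding genes. By the mean of both animals, the highest were Smc3 of the cohesin ring at 14.4 and 8.70, Yy1 at 12.8 and 6.61, Ezh2 of the Polycomb complex at 11.8 and 6.91, and Cbx5, a heterochromatin protein, at 12.2 and 6.49. Ctcf itself had 3.76 and 3.84 and Zfp57 1.42 and 1.54. Closed in both animals were Ctcfl, a germline relative of CTCF, and Dppa3, a factor of the oocyte.

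A list of 38 other genes of imprinted regions was compared too, and not all of them lie in the domains defined here. Of the 38, 28 (73.7%) were open in both animals, against 66.8% of protein-coding genes, with medians of 3.68 and 2.33 among those open. At the most upstream start alone 25 were open in both animals, against 62.1% of protein-coding genes. By the mean of both animals, the highest were Nap1l4 at 13.6 and 11.02, Tssc4 at 11.8 and 5.52, Commd1 at 9.65 and 7.20 and Trappc9 at 7.78 and 7.30. Th, Tspan32, Kcnk9, Calcr, Slc22a2, Mas1, Cpa4 and Zfp264 were closed in both animals. Ddc and Begain had a promoter peak in replicate 2 only, of 0.391 and 0.561.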

How the data were processed

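DNase-seq files of 2 bladder libraries were used, 1 per animal. Per the labels, coordinates are on mm10. The authors deposited a height for each peak, which is never negative and is treated as a signal. How it was scaled, and which aligner and caller were used, is not given in the sources used here, and depth is unknown. The deposited false discovery rates, p-value type columns of the authors, reach 0.05 for single bases and are a constant 0.01 for footprints, so footprints could not be ranked. Peaks and footprints were deposited for each animal separately. Of the 2 peak lists per animal the longer was used (the smaller lists hold 73247 and 61717 peaks), and 1079 and 2406 of its peaks overlap another of the same list.

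Genes and starts came from GENCODE M21 and sequence from GRCm38. A domain was the gene with 20 kb added at each end. A peak was shared when it overlapped by at least 1 bp. A motif counted as protected when a footprint extended by 5 bp contained it. Control windows were placed from textbook knowledge. Members, gene lists and windows were chosen with earlier results of these data known. All 37 members were described, and of the other lists the 4 highest genes and those closed in both animals; Ctcf, Zfp57, host genes, Ddc and Begain were added after their values were seen. Scripts were tested on simulated intervals and ran with Python 3.11.15, numpy 2.4.6, pandas 2.3.3, pysam 0.24.0, bedtools 2.31.1, samtools 1.23.1 and matplotlib 3.10.9.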

Additional observations from a re-analysis of the deposited data

How the results depend on the processing

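The number of imprinted genes with an open promoter in both animals, 31, stayed within 1.5 times under the alternatives run: 29 with a window of 500 bp, 33 with 2 kb (adding H19 and Ndn), 23 with only the most upstream start, and 26 both with the smaller list and with the higher 50% of peaks. It was 31 and 34 when replicate 1 or replicate 2 was left out. Control regions with a peak in both animals numbered 15 to 18 over their alternatives. Peak density in the domains, 0.773 per 10 kb, fell to 0.512 with the smaller list and 0.456 with the higher 50% of peaks, as fewer peaks enter, and was 0.706 and 0.840 without replicate 1 or 2. CTCF cores protected in both animals, 24, numbered 9 with a stricter consensus and 14 with footprints not extended, both narrower by construction, and 19 to 28 with other flanks or an extension of 10 bp. In single animals there were 30 and 30. The median difference between animals, -0.09 (log2), turned to 0.0038 with only 1 kb around starts, 0.0052 with only peaks found in both animals and 0.12 with the smaller list. The cause was not tested, so its sign is not settled. The share of peaks found in the other animal has no value without either replicate. No paired analysis was possible because the samples form a single group. Without read counts, peaks near the detection limit, such as those of H19, Ndn and Magel2, cannot be given an error.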
